A study of Mus musculus with 386 samples.

Results

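The genes described are those of sterol and fatty acid synthesis, a set of 34 named genes followed in brain, kidney, liver and lung of inbred and F1 hybrid mice. The set was fixed by name. A member was measured where the array had a transcript cluster (the group of probes read as 1 value) paired with its symbol alone, and the cluster with the highest mean was taken where there were several. By this rule 33 of the 34 members were measured, out of 18820 genes in all. The sterol arm held 19 members, 18 of them measured: 16 enzymes of the route from acetyl units to cholesterol, with Ggps1, which makes the prenyl donor geranylgeranyl diphosphate, and Stard4, a cholesterol transfer protein. The cholesterol-side thiolase Acat2 was the member without such a cluster. The other members were 5 regulators (Srebf1, Srebf2, Scap, Insig1 and Insig2) and 10 genes of the fatty acid arm.

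Signals came from Affymetrix Mouse Gene 1.1 ST arrays hybridised with total RNA and are log2 values that the authors deposited after RMA, a method that corrects background, normalises arrays and summarises the probes of a cluster. The mice, male and female and 23 days of age, belonged to CAST, PWK or WSB, all inbred, or to their 6 reciprocal F1 crosses. In a cross name the dam comes before the sire. No treatment is described, and every group shared the colony, bred few generations away from purchased founders, as well as the age and the extraction kit. There were 85 brain, 102 kidney, 101 liver and 98 lung arrays from 111 animals, with 6 to 13 arrays per cross and tissue and 2 to 7 per cross, sex and tissue. Each array of a cross and tissue was a separate animal. The number of arrays sets the precision.

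Mammalian cells make cholesterol from acetyl-CoA through mevalonate, squalene and lanosterol, and fatty acids from the same acetyl-CoA through malonyl-CoA. Both routes are controlled by sterol regulatory element binding proteins, membrane-bound transcription factors encoded by Srebf2, known mainly for sterol genes, and Srebf1, known in liver mainly for fatty acid genes. The escort protein Scap carries them to the Golgi for cleavage when sterols are low, and Insig1 and Insig2 hold Scap in the endoplasmic reticulum when sterols are high. Insig1 is itself a target of these factors. Liver is a main site of both routes, and the brain makes its own cholesterol, much of it for myelin.

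The tissue labels were borne out by marker genes: the mean level was 13.4 for hepatocyte markers in liver, 12.6 for proximal tubule markers in kidney, 12.4 for alveolar type 2 markers in lung and 12.2 for neuron markers in brain. In 2 arrays Xist and the Y-linked genes went against the labelled sex (a PWKxCAST brain labelled female and a PWKxWSB liver labelled male), and 1 WSB brain array stood apart from the other brains. Leaving these arrays out moved no count of called members by more than 1.5 times. The animal numbers in the labels fell into 27 runs of neighbouring numbers, each run holding a single cross. Litter and collection day are not given in the sources used here, so the runs served as a stand-in, and differences between crosses were also fitted with the run as a random block. No comparison of crosses could be made within a run. The sequences of the probes were not used, so mismatches between a strain's transcript and the probes were not tested.

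Promoters were read for the 28 members found in the RefSeq table (build GRCm38.p6), over the 250 bases before the start, on both strands. The box CCAAT, bound by NF-Y, a known partner of these factors, was present in 14 of 15 sterol-arm promoters, in 4 of 5 regulator promoters and in 5 of 8 fatty acid promoters, against 37.5% of 27025 genes. The GC box GGGCGG, bound by Sp1, was present in 13 of 15, 5 of 5 and 3 of 8, against 35.4% of genes. A sterol regulatory element core, TCACNCCAC, was present in 1 of 15 sterol-arm promoters, that of Hmgcs1, and in 1.22% of genes. The E-box CACGTG was present in 3 of 15 sterol-arm promoters and in 6.86% of genes. Hmgcs1 (cytosolic HMG-CoA synthase) is shown because it held the element core. Lss, Nsdhl and Mvd are shown as sterol-arm members that varied most with their arm in liver, and Acacb and Fasn as the fatty acid arm's counterpart. These last were chosen after their values were seen. Capitals mark matches to CCAAT on either strand (ATTGG on the other) and, in Hmgcs1, also the element core TCACCCCAC. Sequences run 5′ to 3′ on the strand of the gene.
Hmgcs1 (chr13:119690159-119690278, plus strand): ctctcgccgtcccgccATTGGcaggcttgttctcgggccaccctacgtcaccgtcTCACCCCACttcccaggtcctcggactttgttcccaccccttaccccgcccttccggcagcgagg
Lss (chr10:76531485-76531604, plus strand): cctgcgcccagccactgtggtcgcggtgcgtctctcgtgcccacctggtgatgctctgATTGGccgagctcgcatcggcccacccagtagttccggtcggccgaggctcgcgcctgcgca
Nsdhl (chrX:72918401-72918520, plus strand): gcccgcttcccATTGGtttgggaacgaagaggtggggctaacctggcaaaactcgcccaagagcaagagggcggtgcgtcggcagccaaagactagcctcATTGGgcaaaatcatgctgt
Mvd (chr8:122443423-122443542, minus strand): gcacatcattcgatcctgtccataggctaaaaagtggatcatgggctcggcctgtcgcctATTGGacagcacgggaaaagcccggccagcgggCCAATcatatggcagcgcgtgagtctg
Acacb (chr5:114165376-114165495, plus strand): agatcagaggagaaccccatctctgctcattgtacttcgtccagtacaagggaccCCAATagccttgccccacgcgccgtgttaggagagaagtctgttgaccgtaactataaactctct
Fasn (chr11:120824548-120824667, minus strand): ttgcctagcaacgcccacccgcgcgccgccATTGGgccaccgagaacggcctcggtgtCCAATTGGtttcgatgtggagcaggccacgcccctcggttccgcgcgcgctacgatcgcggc
A match is a description of the letters in the window and no evidence of binding.

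Sterol genes were highest in liver. Of 18 measured sterol-arm genes, 16 had their highest mean there, and the exceptions were Mvd (mevalonate diphosphate decarboxylase) in kidney and Ggps1 in brain. Tm7sf2, a sterol reductase, had a mean level of 11.6 in liver, 8.75 in kidney, 8.50 in brain and 7.33 in lung. Idi1, which isomerises isopentenyl diphosphate, had 11.3 in liver against 9.63, 9.18 and 9.16 in brain, lung and kidney. Of the regulators, Srebf1, Scap, Insig1 and Insig2 were highest in liver, while Srebf2 was highest in brain (11.3) and lowest in kidney (10.5).

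The fatty acid arm was spread over the tissues. Fasn (fatty acid synthase) and Scd1 (stearoyl-CoA desaturase) were highest in lung, at 12.03 and 13.05. Another desaturase, Scd2, ran from 12.8 in brain and 12.5 in lung through 10.7 in kidney to 8.32 in liver. Me1 (malic enzyme, a source of NADPH) and Acss2 (acetyl-CoA synthetase) were highest in kidney, at 11.9 and 11.6. Thrsp, a lipogenic protein of liver and fat, ranged from 11.3 in liver to 6.94 in lung. Levels of different genes come from different probes and were not compared. In limma across all arrays, with the animal as a random block and each tissue set against the mean of the other tissues, the members called numbered 29 of 33 (brain), 33 (kidney), 33 (liver) and 32 (lung). A gene counts as called, here and below, where its p-value adjusted by Benjamini-Hochberg over all genes tested is under 0.05. Of all 13774 genes tested, 96.5%, 94.9%, 96.7% and 96.6% were called, so the members' share was near that of all genes. In bulk tissue, fewer cells of a type and less RNA per cell cannot be told apart.

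Most members of the sterol arm varied together from animal to animal, most closely in liver and least so in kidney. After the mean of each cross and sex was removed, the median correlation over the 153 pairs of sterol-arm genes was 0.41 in brain, 0.31 in the kidney, 0.58 in the liver and 0.43 in the lung. Over all pairs of genes tested the medians lay between 0.03 and 0.04. In liver 66.0% of sterol-arm pairs had a correlation over 0.5, against 3.18% of all pairs. The 45 pairs of the fatty acid arm had medians of 0.09, 0.38, 0.33 and 0.42 in brain, kidney, liver and lung. Pairs with a member in each arm had medians of 0.15, 0.02, 0.16 and 0.07 and held correlations of both signs. They ran from -0.62 (Mvk and Fasn) to 0.74 (Mvk and Acss2) in brain, and 11.1% were over 0.5 there, 3.33% in kidney, 13.9% in liver and 0 pairs in lung. Within runs of animal numbers the liver median between the arms was 0.28. These correlations are over 85 to 102 arrays and are descriptions: the genes share arrays, animals and tissue pieces. The liver values, here and below, include the second run of WSB males, described below, some of which had very low sterol-arm levels. They were not computed without that run, so its share in the closer liver covariation was not tested.

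**Figure D1:**
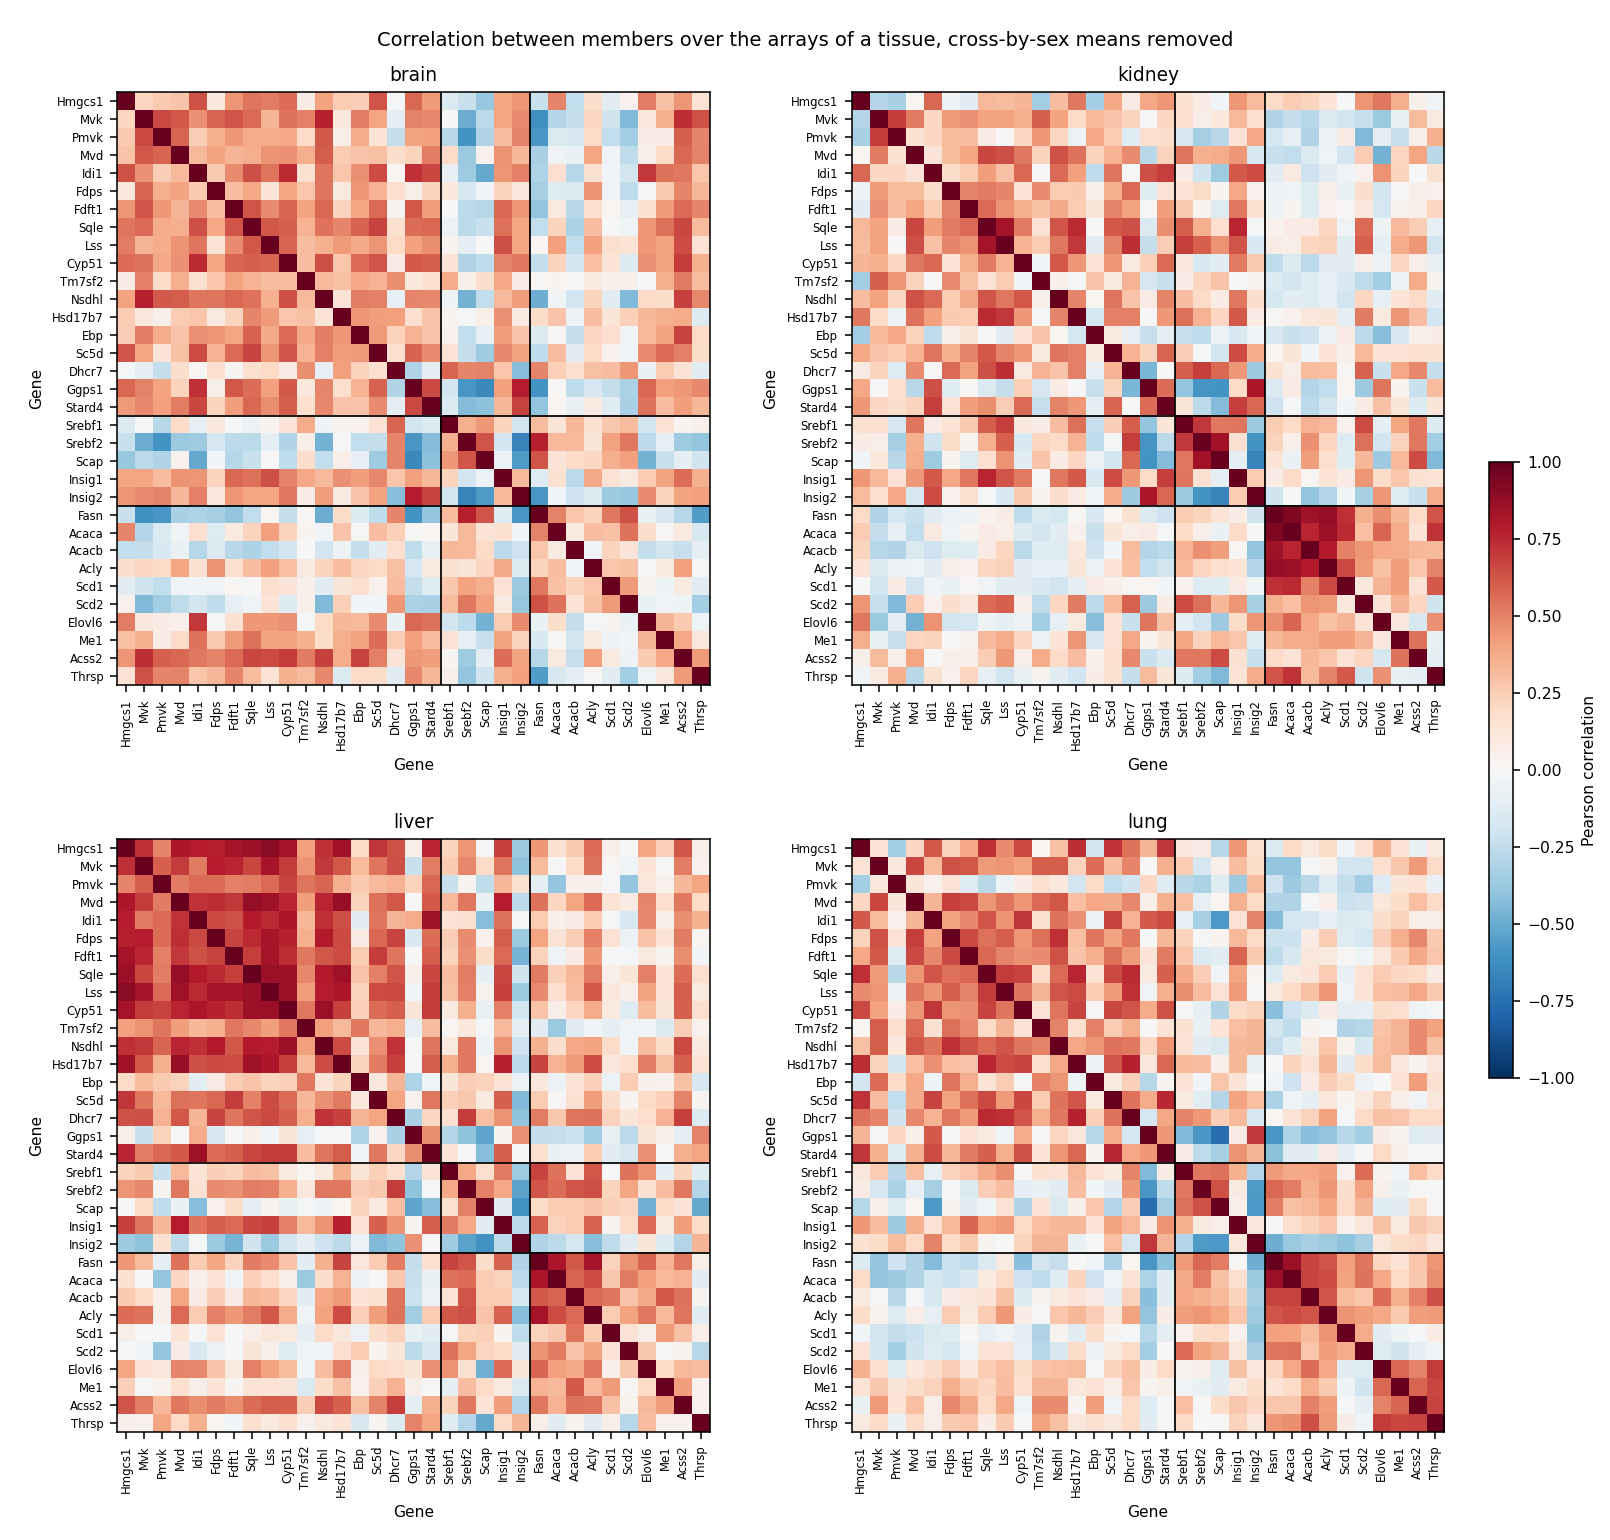
Pearson correlation between the 33 measured members in each tissue, over arrays, after removing the mean of each cross and sex. Colour runs from blue (negative) to red (positive), and lines separate the sterol arm, the regulators and the fatty acid arm. The sterol block is most uniform in liver (median 0.58). Both the sterol block and the block between the arms hold pairs of both signs, and the block between the arms has medians of 0.02 to 0.16.

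Within the sterol arm the most connected members in liver were Lss (lanosterol synthase), with a median correlation of 0.78 to its arm, Hmgcs1 (0.76), Nsdhl (a sterol dehydrogenase, 0.71), Mvd, Cyp51 (lanosterol demethylase) and Sqle (squalene epoxidase, 0.70 each). Ggps1 (-0.01) and Ebp, a sterol isomerase (0.22), stood outside the group. The pair Sqle and Idi1 had r = 0.79 in liver (Spearman rho = 0.75), 0.64 in brain, 0.63 in lung and 0.42 in kidney. In liver its permutation p was 1e-05 for both measures, the smallest that 100000 resamples can give, or 2e-05 (Pearson) and 2.15e-05 (Spearman) adjusted over the 28 gene pairs by tissue that were computed. These permutations, here and below, took arrays as independent and tested against no correlation. Over all liver gene pairs, correlations ran from -0.37 to 0.45 with the extremes at each end left out. The p-value thus does not measure how unusual a pair is among genes. Without the 2 liver arrays farthest from the median of Sqle, r was 0.77, and within runs of animal numbers it was 0.76.

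Among the regulators, Insig1 followed the sterol arm in all tissues, with median correlations of 0.41, 0.48, 0.56 and 0.33 in brain, kidney, liver and lung. Srebf2 had medians of 0.45 in liver, 0.07 in kidney, -0.09 in lung and -0.27 in brain, and its partners differed: with Sqle it had r = 0.35 in kidney, 0.25 in lung and -0.27 in brain, and with Dhcr7 0.69 in kidney. Insig2 had a median of -0.23 with the sterol arm in liver. Its closest member was Ggps1, at 0.79 in brain, 0.81 in the kidney, 0.46 in the liver and 0.70 in the lung. Srebf2 and Scap were positively correlated in every tissue, at 0.63, 0.84, 0.50 and 0.63.

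In the fatty acid arm, Fasn and Acly (ATP citrate lyase, which supplies acetyl-CoA) had r = 0.23 in brain, 0.88 in the kidney, 0.83 in the liver and 0.63 in the lung. Fasn and Acaca (acetyl-CoA carboxylase) had r = 0.50, 0.93, 0.81 and 0.86. Srebf1 and Fasn had r = 0.68 in liver (rho = 0.66, permutation p 1e-05 for both, adjusted 2e-05 and 2.15e-05), 0.67 without the 2 arrays farthest from the median and 0.53 within runs. In brain, kidney and lung the same pair had r = 0.32, 0.25 and 0.42. Srebf1 and Sqle had r = 0.60 in kidney, above the value for Srebf1 and Fasn there, and -0.06, 0.31 and 0.38 in brain, liver and lung. Between the arms, the single pair Fasn and Sqle had r = 0.52 in liver, and -0.25, 0.04 and -0.13 in brain, kidney and lung. The mean of the sterol arm correlated with the mean of the fatty acid arm at 0.51 in brain and 0.41 in liver. In kidney and lung these means had -0.01 and 0.13. Acss2 had a median correlation with the sterol arm of 0.55 in brain and 0.51 in liver.

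The genes outside the set that lay closest to each arm differed by tissue. Msmo1, the sterol C4-methyl oxidase of the same route, was the nearest gene to the mean of the sterol arm in kidney (0.81), liver (0.90) and lung (0.85). In liver it was followed by Aacs (0.82), Rdh11 (0.78) and Mmab (0.71). In brain the nearest genes were the myelin gene Mal (0.86), Vamp3 (0.85) and Gjc3, an oligodendrocyte connexin (0.81). For the fatty acid arm in kidney they were Slc36a2 (0.86), Hk2 (0.85) and the fat-cell genes Lipe (0.85) and Plin1 (0.82). In lung they were Gpd1 (0.86), Dgat2 (0.80), Aqp7 (0.76) and Plin1 (0.72).

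Markers of other cell types moved with these arms. An arm's score is the mean over its members of each log2 level minus the gene's mean in that tissue, and a marker list was scored the same way. In brain the sterol score correlated with the oligodendrocyte score at 0.71 and with the astrocyte score at 0.65 after cross and sex were removed. In kidney, liver and lung the sterol score had 0.12, -0.205 and 0.42 with the oligodendrocyte list. With the astrocyte list it had -0.05, -0.11 and 0.55 there. The 6 measured oligodendrocyte markers averaged 11.8 over brains (11.2 to 12.1). The fatty acid score correlated with the white and brown fat scores at 0.76 and 0.76 in kidney and at 0.67 and 0.78 in lung, but at -0.13 and -0.16 in liver. White fat markers ranged from 7.22 to 10.2 over kidneys and from 5.97 to 9.42 over lungs, and brown fat markers from 6.46 to 11.02 and from 5.50 to 10.1. With the mean of the white and brown fat markers taken out, the median correlation within the fatty acid arm was 0.38 in kidney and 0.30 in lung. The adrenal cortex score, which ranged from 4.39 to 9.45 over kidneys, had correlations of 0.11 and 0.10 with the kidney arms. Clock genes had correlations of -0.35, -0.39, -0.11 and -0.53 with the sterol score in brain, kidney, liver and lung. Exocrine pancreas markers reached 12.3 in 1 CAST liver.

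**Figure D2:**
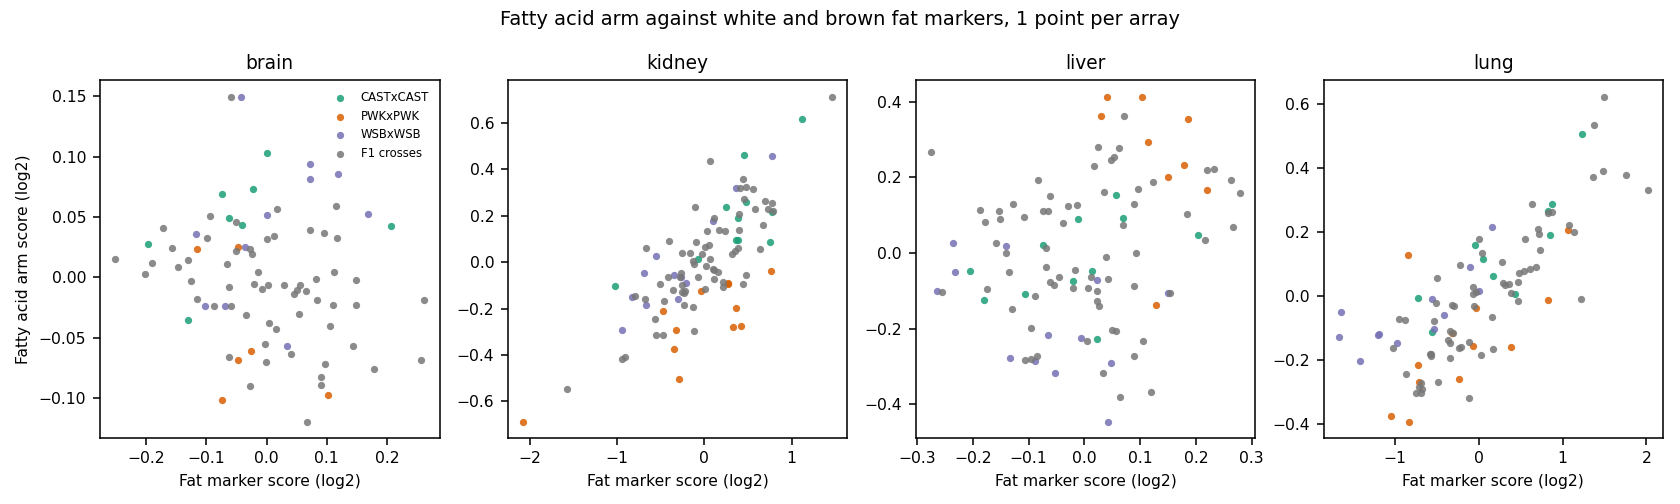
Fatty acid arm score of each array against its fat marker score (both in log2 units around the tissue mean), in the 4 tissues. The fat score averages white and brown markers; CAST is green, PWK orange, WSB purple and F1 crosses grey. Points climb together in kidney and lung, where the correlations with white fat were 0.76 and 0.67 after cross and sex were removed, against -0.13 in liver.

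Scores of the same animal in different tissues were weakly correlated. After cross and sex were removed, the sterol score in a tissue correlated with the score in another tissue of the same animal at 0.09 to 0.29, the highest between kidney and lung over 93 animals. The fatty acid score did so at -0.10 to 0.29, the highest between liver and lung over 92 animals. Of the spread in the sterol score, 51.3%, 61.9%, 42.8% and 64.0% lay between crosses in brain, kidney, liver and lung, and 12.6%, 23.2%, 30.8% and 20.7% between runs within a cross. For the fatty acid score the share between crosses was 26.6%, 25.1%, 43.4% and 34.2%.

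CAST mice had lower sterol scores than PWK mice in all 4 tissues. In CAST the sterol score was -0.24 ± 0.08 (brain, SD, n = 8), -0.28 ± 0.10 (kidney, n = 11), -0.38 ± 0.15 (liver, n = 11) and -0.18 ± 0.10 (lung, n = 10). The PWK score was 0.10 ± 0.09 (n = 6), 0.14 ± 0.14 (n = 12), 0.15 ± 0.17 (n = 9) and 0.14 ± 0.22 (n = 12). The groups did not overlap in brain, kidney or liver and did so in lung. WSB mice scored -0.04 ± 0.11 (n = 11), 0.09 ± 0.05 (n = 12), -0.18 ± 0.40 (n = 13) and -0.06 ± 0.14 (n = 12). The scores describe the arm and carry no test.

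**Figure D3:**
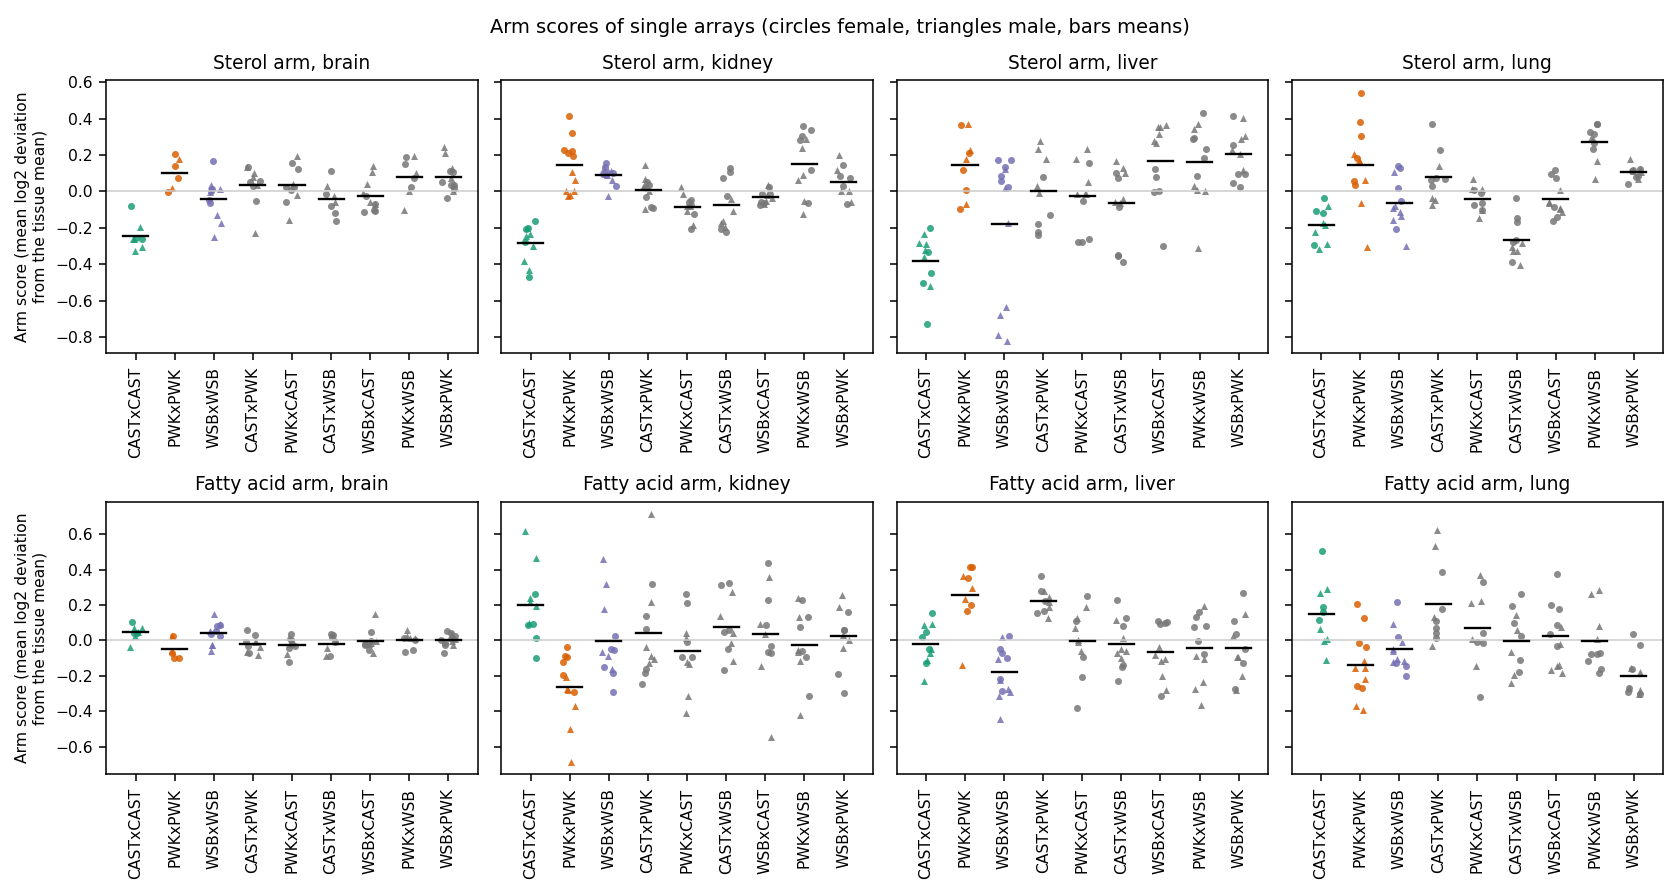
Sterol arm score (upper row) and fatty acid arm score (lower row) of every array, by cross and tissue, in log2 units around the tissue mean. Circles are females, triangles males and bars the cross means; CAST is green, PWK orange, WSB purple and F1 crosses grey. The CAST mean is the lowest of the 9 crosses for the sterol arm in brain (-0.24), kidney (-0.28) and liver (-0.38), and a group of WSB liver arrays lies far below the rest.

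The 6 WSB liver males of the second run of animal numbers accounted for the wide WSB spread. Their sterol scores were -0.17, 0.02, -0.64, -0.79, -0.68 and -0.82, while the other 7 WSB livers lay between 0.02 and 0.17. The same run had sterol scores of -0.02 to 0.13 in kidney, -0.25 to 0.04 in brain and -0.30 to -0.08 in lung. Counts for liver comparisons with WSB are therefore given with and without this run, an alternative added after the data were seen. Liver values of single genes are given with the run in, and some named differences were no longer called without it. Without it 1 WSB male remained.

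Single genes were tested with limma on the 18 means of cross and sex in each tissue, over the 11292 genes above the 40th percentile of mean signal. In kidney, liver and lung all 33 measured members passed this filter, and in brain Acacb did not, leaving 32. The 3 strain comparisons share strains, so they are not independent of each other. All differences are the first strain minus the second.

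Between CAST and PWK, most called sterol-arm genes were lower in CAST: 12 of 18 were lower and 1 higher in brain, 12 and 5 in the kidney, 15 and 0 in the liver, and 10 and 0 in the lung. The median difference was -0.35, -0.34, -0.45 and -0.16. Over all members 18 of 32 were called in brain, 27 of 33 in kidney, 26 in liver and 22 in lung, where 40.9%, 60.1%, 50.1% and 62.7% of all genes were called. In lung the members' share was near that of all genes. Over all genes the median differences between inbred strains lay between -0.02 and 0.06. Fatty acid genes took different directions by tissue: 7 were higher and 1 lower in kidney, 1 and 7 in liver, 4 and 5 in lung, 1 and 3 in brain. Their median was 0.52 in kidney and -0.31 in liver.

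Early in the sterol route, Pmvk (phosphomevalonate kinase) differed most. Its liver levels were 7.53, 8.21 and 8.73 in CAST (lowest, median, highest) against 9.54, 10.06 and 10.29 in PWK. No CAST array reached the PWK range, and the same held in brain (highest CAST 7.92, lowest PWK 8.86), kidney (7.29 and 8.10) and lung (8.10 and 8.42). Pmvk was 3.53-fold lower in CAST liver (log2 difference -1.82 ± 0.13 SE, limma adjusted p 3.07e-23), and 2.44-, 3.19- and 2.52-fold lower in brain, kidney and lung. Mvd, which acts next, ran from 7.45 to 8.04 in CAST kidney and from 9.01 to 9.39 in PWK kidney, a 2.62-fold difference (-1.39 ± 0.07, limma adjusted p 9.89e-33). Idi1 ran from 8.07 to 8.79 in CAST lung and from 8.71 to 10.01 in PWK lung, which overlap slightly, and was 2.11-fold lower (limma adjusted p 3.6e-16). A separate cluster for Idi1 had r = 0.97 to 0.99 with the one used. Of the other members with a separate cluster, Me1 had r = 0.79 to 0.97, Acaca 0.68 to 0.95 and Scap 0.02 to 0.17. The separate Scap cluster had tissue means of 4.62 to 5.22, against 9.79 to 11.02 for the one used.

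Later in the route the widest gap was that of Cyp51 in kidney, with 8.16, 8.56 and 8.94 in CAST and 10.11, 10.40 and 10.65 in PWK. CAST was 3.50-fold lower (-1.81 ± 0.08, limma adjusted p 1.45e-35), and the groups were far apart. Dhcr7, the last reductase of the route, ran from 8.04 to 8.57 in CAST kidney and from 8.84 to 9.82 in PWK kidney, 2.04-fold lower. Hsd17b7, a sterol ketoreductase, was lower in CAST by a like amount in all 4 tissues, at -0.62 in brain, -0.79 in the kidney, -0.65 in the liver and -0.63 in the lung. Against the direction of the arm, Hmgcs1 was higher in CAST kidney, where CAST had 11.42, 11.62 and 11.72 and PWK 10.66, 10.77 and 11.02 (0.80 ± 0.05, limma adjusted p 5.76e-26). In liver the same gene was lower in CAST (-0.48). Stard4 was also higher in CAST kidney (0.42).

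Of the regulators, Insig1 had lower CAST levels in liver (-0.36) and lung (-0.35) and higher ones in kidney (0.22). Srebf1 was lower in CAST liver (-0.44 ± 0.13, limma adjusted p 0.00318), and its liver levels overlapped, from 10.24 to 11.13 in CAST and from 10.59 to 11.62 in PWK. Scap was lower in CAST in brain, kidney and lung (-0.19, -0.29 and -0.13). Srebf2 was called in none of the 4 tissues for this pair.

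In the fatty acid arm, Acacb (the mitochondrial-side carboxylase) differed most in lung, with 8.42, 9.01 and 9.26 in CAST and 6.77, 7.27 and 7.72 in PWK. CAST was 3.37-fold higher without overlap (1.75 ± 0.10, limma adjusted p 2.28e-28). In liver Acacb was not called, with medians of 9.03 and 9.05. Thrsp was higher in CAST in kidney (1.49 ± 0.24, limma adjusted p 6.99e-08), where PWK ran from 6.05 to 9.74 and CAST from 8.74 to 10.82, and also in lung (1.06) and liver (0.58). Fasn, Acaca and Scd1 were higher in CAST kidney (0.57, 0.47 and 0.68) and lower or not called elsewhere. Acly was lower in CAST liver (-0.61), where CAST ran from 10.35 to 10.92 and PWK from 10.67 to 11.54. Fat markers moved with the kidney result: 4 of 4 brown fat markers were higher in CAST kidney, with means of 9.91 in CAST and 8.95 in PWK, and 1 of 6 tested white fat markers was higher and 1 lower. With a single fat marker score as a covariate the kidney count stayed at 7 higher and 1 lower, with a median of 0.29 in place of 0.52. For counts with a marker score as a covariate, here and below, no share of all genes is given. A change in such a count can therefore not be called particular to an arm.

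**Figure D4:**
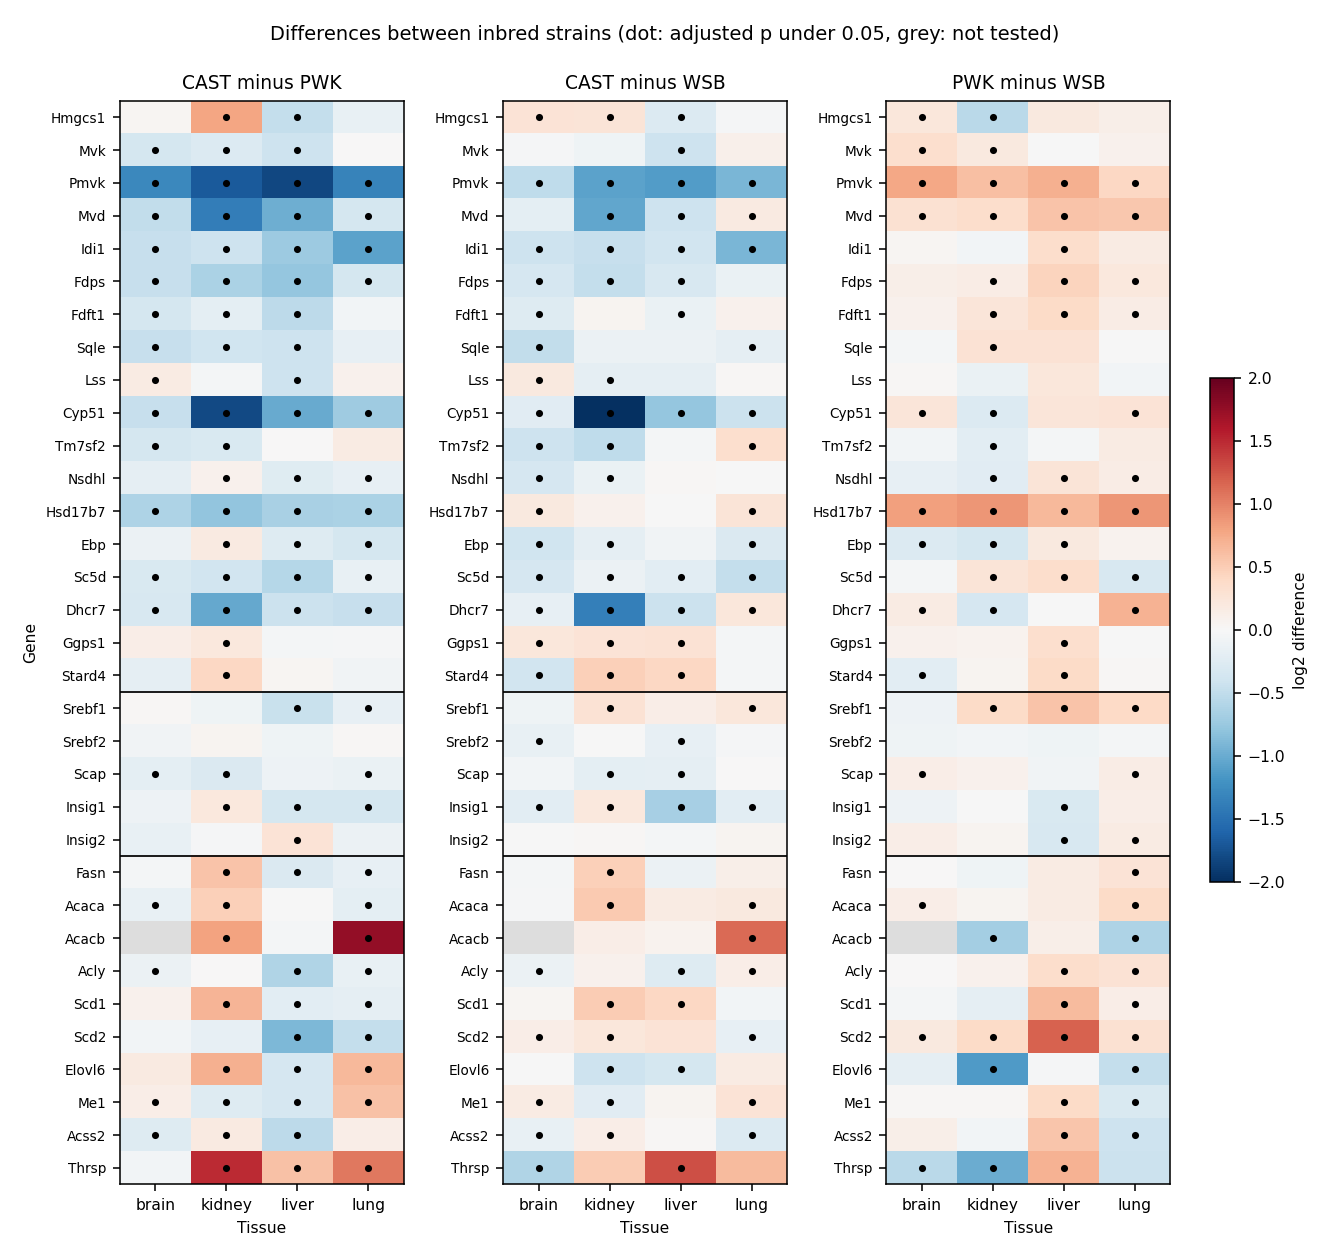
Log2 difference between inbred strains for the 33 measured members in 4 tissues, for CAST minus PWK, CAST minus WSB and PWK minus WSB. Blue is lower and red higher in the first-named strain, dots mark limma adjusted p under 0.05, and grey marks Acacb in brain, which was not tested. Pmvk and Cyp51 are blue throughout the CAST minus PWK panel.

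Between CAST and WSB, called sterol-arm genes were again more often lower in CAST, least clearly in lung. Those lower and higher numbered 12 and 4 in brain, 11 and 3 in the kidney, 10 and 2 in the liver, and 6 and 4 in the lung. The medians were -0.30, -0.16, -0.20 and -0.03. Over all members 23, 24, 19 and 18 were called in brain, kidney, liver and lung, against 52.4%, 59.6%, 57% and 59.9% of all genes. In liver and lung the members' share was near that of all genes. Cyp51 in kidney was 4.21-fold lower in CAST (-2.07 ± 0.08, limma adjusted p 5.51e-40), with WSB between 10.37 and 10.98. Dhcr7 in kidney was 2.59-fold lower (WSB 9.36 to 10.16), yet in lung Dhcr7 was slightly higher in CAST (0.22). Pmvk was lower in CAST in all 4 tissues (-0.51, -1.07, -1.11 and -0.92). Insig1 was lower in CAST liver (-0.66 ± 0.07, limma adjusted p 9.82e-13), at 11.09 to 11.86 against 11.77 to 12.48 in WSB, ranges that touch.

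The fatty acid arm had 5 higher and 2 lower in CAST kidney, 4 and 2 in lung, 2 and 2 in liver, and 2 and 3 in brain. Thrsp was 2.44-fold higher in CAST liver (1.28 ± 0.11, limma adjusted p 1.17e-18), with 11.40 to 12.23 in CAST and 9.95 to 11.25 in WSB and no overlap, but lower in CAST brain (-0.60). Acacb was higher in CAST lung (1.13 ± 0.10), where WSB ran from 7.47 to 8.27. White fat markers were higher in CAST in lung (6 of 6 tested, mean 8.14 against 7.03 in WSB) and in kidney (4 of 6), and brown fat markers in kidney (4 of 4). With the fat marker score as a covariate the fatty acid arm had 2 higher and 2 lower in kidney, and 1 higher and 3 lower in lung. In brain, 4 of 6 oligodendrocyte markers were lower in CAST for this pair, with a mean of 11.46 against 11.82 in WSB. With their score as a covariate, an alternative added after the data were seen, the brain sterol arm had 6 lower and 5 higher. The CAST and PWK comparison kept 12 lower and 1 higher, with 4 of the 6 markers lower in CAST.

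Leaving out the second WSB run in liver left 12 sterol-arm genes lower and 0 higher in CAST, and over all members 15 lower and 2 higher, where 41.8% of all genes were called.

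Called sterol-arm genes were more often higher in PWK than in WSB, least evenly in liver. Those higher and lower in PWK numbered 7 and 2 in brain, 8 and 6 in the kidney, 11 and 0 in the liver, and 8 and 1 in the lung, with medians of 0.09, 0.06, 0.31 and 0.15. Over all members 13, 19, 20 and 21 were called, against 40.4%, 60.7%, 55.3% and 61.4% of all genes. The members' share was thus near that of all genes in each tissue. Called genes as a whole also leaned to PWK, with 4234 higher and 2619 lower in kidney and 3581 and 2668 in liver. Hsd17b7 was higher in PWK in every tissue (0.82, 0.88, 0.64 and 0.89). Its ranges did not overlap in brain (PWK 9.70 to 9.95, WSB 8.65 to 9.33) or kidney (9.77 to 10.22 and 8.87 to 9.23). The fatty acid arm had 6 higher and 0 lower in PWK liver (median 0.37), led by Scd2 (1.18 ± 0.14, limma adjusted p 4.12e-12), with 8.60 to 9.45 in PWK against 6.72 to 9.11 in WSB. Scd1 liver levels were 12.66 to 13.04 in PWK and 11.98 to 12.48 in WSB, without overlap. Elovl6, the elongase of long-chain fatty acids, was 2.19-fold lower in PWK kidney (-1.13 ± 0.10, limma adjusted p 1.86e-18), at 9.22 to 9.93 against 10.70 to 11.11.

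Srebf1 was higher in PWK than in WSB in kidney (0.38), liver (0.57 ± 0.13, limma adjusted p 7.63e-05) and lung (0.40). Insig1 and Insig2 were lower in PWK liver (-0.30 and -0.31). Without the second WSB run, the liver comparison had 8 members higher and 2 lower, with 2 of the sterol arm higher and 0 lower, where 39.2% of all genes were called. The number of sterol-arm genes higher in PWK liver was thus 11 with the run and 2 without it.

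Some members differed one way in all tissues. Between CAST and PWK, 8 of 32 members tested in all tissues were lower in CAST in all 4: Pmvk, Mvd, Idi1, Fdps (farnesyl diphosphate synthase), Cyp51, Hsd17b7, Sc5d (sterol C5-desaturase) and Dhcr7. Of 9152 genes, 11.6% were called in 1 direction in all 4 tissues. Between CAST and WSB these were Pmvk, Idi1, Cyp51 and Sc5d, lower in CAST, against 13.1% of genes. Between PWK and WSB they were Pmvk, Mvd, Hsd17b7 and Scd2, higher in PWK, against 12.1%. For both pairs with WSB the members' share, 4 of 32, was near that of all genes.

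The size of most differences still depended on the tissue. A limma F-test of strain by tissue, with 3 degrees of freedom, called 28 of 32 members for CAST minus PWK, 29 for CAST minus WSB and 25 for PWK minus WSB, against 67.4%, 72.5% and 67.6% of 9152 genes. Hsd17b7 and Srebf2 were called for none of the pairs. Hsd17b7 had limma adjusted p-values of 0.403, 0.0926 and 0.118, and Srebf2 of 0.343, 0.0911 and 0.947. Pmvk was not called for PWK and WSB (limma adjusted p 0.0793). Missing the threshold does not show that its differences are equal.

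In F1 animals the position of a gene between its parents is the F1 mean minus the mid-parent (the mean of both parents), scaled so that 1 is the level of the first strain and -1 that of the second. For CAST and PWK, members called between the parents lay within the parental range in 17 of 18 cases in brain, 26 of 27 in kidney, 21 of 26 in liver and 21 of 22 in lung. That is 94.4%, 96.3%, 80.8% and 95.5%, beside 86%, 79.6%, 84.2% and 86.1% of all called genes. The F1 mean of Pmvk lay at -0.42, -0.36, -0.22 and -0.09 in brain, kidney, liver and lung, a little to the PWK side of the middle. Hsd17b7 lay at -0.15, -0.08, -0.23 and -0.12, and Acacb in lung at 0.13. Cyp51 lay further toward PWK, at -0.68, -0.41, -0.31 and -0.51.

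Departures from the mid-parent were tested for each pair by the mean of both F1 crosses minus the mean of both inbred strains. They share the inbred arrays with the strain comparisons. For CAST and PWK, members higher and lower in F1 numbered 7 and 3 in brain, 6 and 1 in the kidney, 7 and 2 in the liver, and 3 and 1 in the lung, against 18.9%, 33.7%, 18.7% and 19.5% of all genes. The sterol arm had 7 higher and 0 lower in brain, and 4 and 1 in kidney. Oligodendrocyte markers were higher in 2 of 6 in these F1 brains, and with their score as a covariate 2 sterol-arm genes were higher and 0 lower. Cyp51 in kidney was 0.37 ± 0.06 above the mid-parent (limma adjusted p 6.3e-07) and Insig1 in liver 0.33 ± 0.06 (limma adjusted p 4.9e-06). With the run as a random block, called members numbered 6 in brain, 4 in the kidney, 4 in the liver and 0 in the lung, where 10.2%, 11%, 8.04% and 7.42% of all genes were called.

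For CAST and WSB the liver stood out. There 19 members were higher and 3 lower in F1 than the mid-parent, against 25.3% of all genes, and the sterol arm had 14 higher and 0 lower, with a median of 0.27. Over all genes the median departure lay between -0.01 and 0.03 in every tissue and pair. Mvd rose most (0.94 ± 0.13, limma adjusted p 1.1e-08), with medians of 7.61 in CAST, 8.28 in WSB, 8.45 in CASTxWSB and 9.17 in WSBxCAST. Sqle had medians of 10.67, 11.12, 11.25 and 11.66 in the same order (0.67 ± 0.09, limma adjusted p 1e-08). Its WSBxCAST arrays ran from 10.95 to 11.93 and overlapped the WSB arrays, which ran from 9.51 to 11.40. Srebf1 (0.67 ± 0.09, limma adjusted p 7.6e-10), Cyp51 (0.55) and Hmgcs1 (0.46) also rose. Of the 19 members called between the parents, 7 lay between them in F1 (36.8%, beside 81.6% of all called genes).

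**Figure D5:**
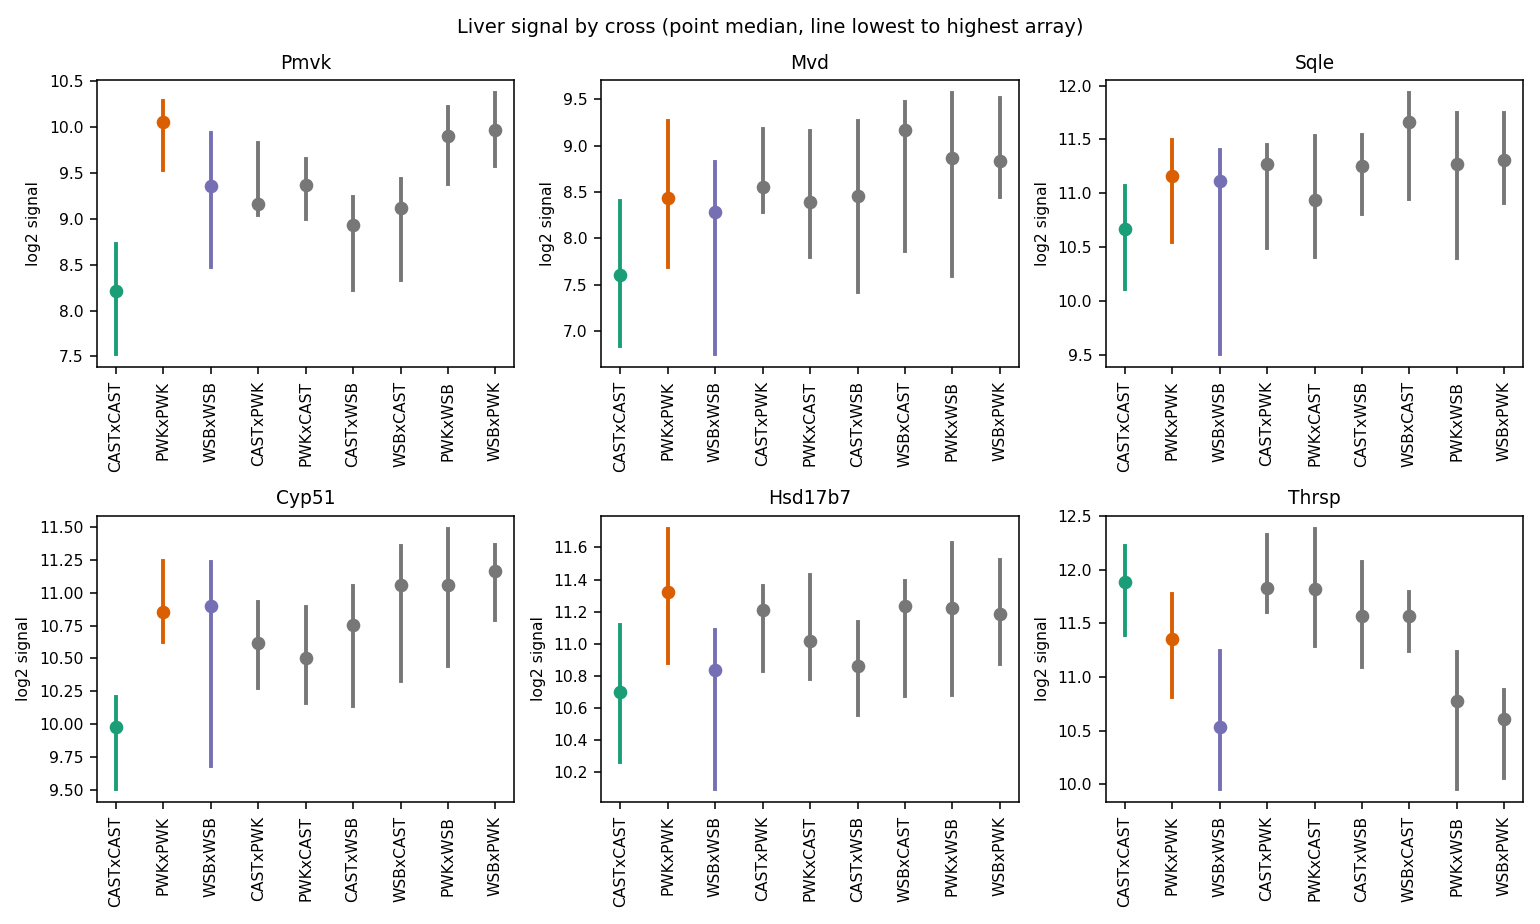
Liver log2 levels of Pmvk, Mvd, Sqle, Cyp51, Hsd17b7 and Thrsp in the 9 crosses. Points are medians and lines run from the lowest to the highest array. For Mvd and Sqle the WSBxCAST median lies above both inbred medians (9.17 against 7.61 and 8.28 for Mvd), and the WSB line reaches far down.

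Part of this rested on the second WSB run. Without it, 13 members were higher and 1 lower in F1 liver, with 8 of the sterol arm higher and 0 lower, where 10.9% of all genes were called, and 13 of 17 members called between the parents lay between them (76.5%, beside 91% of all called genes). With the run as a random block there were 16 higher and 2 lower, with 11 and 0 in the sterol arm, where 10.8% of genes were called. Genes of the fasting response driven by PPARA moved the other way in the same livers: 9 of 9 tested were lower in F1 (median -0.41), and 5 of 9 without the second run. Their part in the result was not tested.

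In the other tissues, CAST and WSB gave 8 higher and 7 lower in brain, 8 and 4 in kidney, and 0 and 8 in lung, against 37.1%, 42.7% and 30.5% of all genes. In brain the sterol arm had 7 higher and 0 lower, while Fasn fell (-0.26 ± 0.05, limma adjusted p 7.9e-05). Oligodendrocyte markers were higher in 5 of 6 and lower in 0, and with their score as a covariate the brain sterol arm had 1 higher and 1 lower. In kidney Cyp51 (0.59 ± 0.06, limma adjusted p 8.3e-14), Srebf1 (0.43) and Mvd (0.41) were above the mid-parent. In lung Pmvk (-0.31) and Insig1 (-0.17) were below it. With the run as a random block 5 members were called in kidney and 1 in lung, where 19% and 13.7% of all genes were called. Members between the parents numbered 18 of 23 in brain, 18 of 24 in kidney and 15 of 18 in lung (78.3%, 75% and 83.3%, beside 74.9%, 71.4% and 80.4% of all called genes).

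For PWK and WSB, members higher and lower in F1 numbered 3 and 1 in brain, 7 and 5 in the kidney, 13 and 1 in the liver, and 14 and 2 in the lung, against 10%, 37.4%, 17% and 37.2% of all genes. The sterol arm had 12 higher and 0 lower in liver (median 0.17) and 12 and 0 in lung (median 0.15). Mvd in liver was 0.54 ± 0.13 above the mid-parent (limma adjusted p 0.0018) and Mvk (mevalonate kinase) in lung 0.24 ± 0.05 (limma adjusted p 8.1e-05). Thrsp was above it in kidney (0.60) and below it in liver (-0.28). Brown fat markers averaged 9.22 and 9.62 in PWKxWSB and WSBxPWK kidneys against 8.95 and 8.89 in PWK and WSB, with 2 of 4 above the mid-parent. With the fat marker score as a covariate Thrsp in kidney was 0.30 ± 0.07 above it (limma adjusted p 0.000274), and the kidney fatty acid arm had 2 higher and 1 lower in place of 4 and 0. Without the second WSB run, 0 liver members were called, where 3.83% of genes were called. With the run as a random block, 1 member was called in liver, 2 in lung and 3 in kidney, where 4.37%, 10.1% and 10.8% of all genes were called. Members between the parents numbered 9 of 13 in brain, 15 of 19 in kidney, 15 of 20 in liver and 17 of 21 in lung (69.2%, 78.9%, 75% and 81%, beside 89.4%, 77.8%, 86.8% and 77.1%).

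Reciprocal crosses, which carry the same autosomes with dam and sire exchanged, differed in the most members in lung for the pairs with WSB, and in liver for CAST and PWK. CASTxWSB was lower than WSBxCAST in 14 members and higher in 0, against 38.8% of all genes, and 13 of the 14 were sterol-arm genes. The members' share, 14 of 33, was near that of all genes. The lung sterol score was -0.27 ± 0.11 in CASTxWSB (n = 11) and -0.04 ± 0.09 in WSBxCAST (n = 12). Idi1 had 8.21, 8.68 and 9.08 in CASTxWSB and 8.66, 9.20 and 9.39 in WSBxCAST, a difference of -0.46 ± 0.10 (limma adjusted p 0.00028) with overlapping ranges. Nsdhl (-0.31 ± 0.05, limma adjusted p 4.5e-06), Insig1 (-0.34) and Mvk (-0.33) were also lower. Clock genes moved with this comparison, with 6 of 11 higher and 1 lower in CASTxWSB, and their part in it was not tested. With the run as a random block 6 members stayed lower, where 10.4% of genes were called.

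PWKxWSB lungs were higher than WSBxPWK lungs in 14 members and lower in 0, against 8.4% of genes: 7 of the sterol arm, 6 of the fatty acid arm and Srebf2. Srebf2 (0.19 ± 0.04, limma adjusted p 0.0028), Fasn (0.33 ± 0.07, limma adjusted p 0.0033) and Mvd (0.35 ± 0.08, limma adjusted p 0.0047) had the smallest p-values. None was called with the run as a random block, where 0.239% of genes were called. For CASTxPWK against PWKxCAST the called members numbered 0 in brain, 3 in the kidney, 5 in the liver and 0 in the lung, all higher in CASTxPWK, against 0.151%, 3.03%, 9.32% and 0.611% of genes. Acacb in liver led them (0.69 ± 0.13, limma adjusted p 0.00016). For CASTxWSB against WSBxCAST there were 1 in brain (Ebp), 2 in kidney (Srebf1 and Insig1, both lower) and 7 in liver, 3 of them higher and 4 lower, against 0.779%, 2.44% and 5.62% of genes. In liver Acacb was higher (0.53) and Mvd lower (-0.71 ± 0.19, limma adjusted p 0.0099). For PWKxWSB against WSBxPWK there were 0 in brain, 3 in kidney (Hmgcs1, Scd2 and Sqle, higher) and 0 in liver, against 0.248%, 1% and 1.22% of genes. Under the run block, 0 or 1 member was called in brain, kidney and liver, where 0.0354% to 0.328% of genes were called.

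Nsdhl and Ebp lie on the X chromosome, so F1 males carry their dam's copy. In 48 exact two-sided permutation tests between reciprocal crosses within a sex and tissue, 11 were called after Benjamini-Hochberg adjustment, 9 in males and 2 in females. Autosomal genes were not tested this way, so no share of all genes stands beside this count. The smallest exact p was 0.00216, which is the smallest that 6 against 6 animals can give. In kidney, Ebp was 10.68 ± 0.13 in males with a CAST dam and 10.31 ± 0.08 in males with a PWK dam (SD, n = 6 and 6), without overlap, where the inbred males differed by 0.14. Nsdhl in the same kidneys was 11.55 ± 0.08 and 11.24 ± 0.12, again without overlap. In lung, Nsdhl was 9.77 ± 0.06 in males with a CAST dam (n = 5) and 10.18 ± 0.10 in males with a WSB dam (n = 6), with an exact permutation p of 0.00433 (adjusted 0.0297). Inbred CAST minus WSB males differed by -0.06 there. F1 females with a CAST dam were also lower, by -0.22 (exact permutation adjusted p 0.0742, not called). Between these crosses, both sexes together, limma called 38.8% of all genes in lung. The direction did not always follow the inbred males. Ebp in kidney was 10.72 ± 0.06 in males with a CAST dam and 10.57 ± 0.03 in males with a WSB dam (n = 5 and 5), higher by 0.16, while inbred CAST minus WSB males differed by -0.20. These tests take animals as independent, although each run of animal numbers lies within a cross. Fitted with the run as a random block and both sexes together, the kidney difference between CASTxPWK and PWKxCAST was 0.26 ± 0.06 for Ebp (limma adjusted p 0.0897) and 0.14 ± 0.06 for Nsdhl (limma adjusted p 0.786), neither called.

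Differences between the sexes were small. In brain 0 members were called by limma, where 0.0708% of all genes were called and 903 genes had an unadjusted p under 0.05. In kidney 6 members were higher and 2 lower in females, against 10.9% of genes, with Dhcr7 (0.18 ± 0.04, limma adjusted p 0.00027) and Ebp (0.11 ± 0.02, limma adjusted p 4.8e-05) among the higher and Me1 (-0.10) and Hmgcs1 (-0.09) lower. In liver 4 were higher and 3 lower, against 13.8%. The arms parted there: Fasn (0.21 ± 0.05, limma adjusted p 0.0035), Elovl6, Acaca and Me1 were higher in females, while Dhcr7, Lss and Fdft1 (squalene synthase) were lower. Without the second WSB run, which was all male, 3 liver members were higher and 11 lower in females, where 15% of all genes were called. In lung 6 were higher in females, 5 of the sterol arm and Insig1, against 3.52%, and 0 were called with the run as a random block, where 1.56% of genes were called.

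Genes of the same pathways outside the set, a list of 26 with 19 or 20 tested per tissue, were counted the same way. Between CAST and PWK 3 were higher and 9 lower in CAST brain, 6 and 6 in the kidney, 2 and 11 in the liver, and 5 and 7 in the lung. Of all genes 40.9%, 60.1%, 50.1% and 62.7% were called, so in kidney and lung the list's share was near that of all genes. Between CAST and WSB the counts were 2 and 11, 6 and 8, 7 and 7, and 9 and 4, against 52.4%, 59.6%, 57% and 59.9% of all genes. Between PWK and WSB they were 2 and 6, 5 and 10, 14 and 1, and 11 and 3, against 40.4%, 60.7%, 55.3% and 61.4%. In brain the list's share for this pair was near that of all genes. In F1 liver of CAST and WSB, 10 of 20 were above the mid-parent and 0 below, where 25.3% of all genes were called. Rdh11, a retinol dehydrogenase, was lower in CAST than in PWK liver (-1.33) and than in WSB liver (-0.87). Tmem97, a sterol-responsive membrane protein, was lower in CAST than in PWK in brain, liver and lung (-0.48, -0.40 and -0.60) and higher in kidney (0.44). Hmgcs1 and Insig1 likewise had a kidney difference opposite in sign to that in liver.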

How the data were processed

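The deposited table holds log2 signals per transcript cluster that the authors made with RMA; the submitters' processing notes also name Affymetrix Expression Console, and give no version of either. No source used here says if the tissues were normalised jointly. Of 35556 clusters 21218 had 1 gene symbol, and 21185 of these matched the GRCm38.p6 gene table. Per-array medians were 5.89 to 6.36.

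Each tissue was fitted with limma 3.58.1 (R 4.3.3; lmFit, contrasts, eBayes with trend) on 18 cross-by-sex means, after a filter at the 40th percentile, with Benjamini-Hochberg adjustment at 0.05 per contrast. Tissue and interaction fits had the animal as a random block, since arrays of an animal share its number (consensus correlation 0.0278). Runs of animal numbers, ended by a gap over 2, had correlations of 0.0874, 0.252, 0.221 and 0.209 in brain, kidney, liver and lung. Scripts were tested on simulated data.

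All 34 members could be named. Full statistics were given by size of difference within an arm, or by smallest p, and genes outside by correlation with an arm score. The members and lists were chosen with earlier results of these data known. Results are given for some of the marker lists only, and scores of other lists also moved with an arm. Alternatives covered filters, model, weights, blocks, arrays left out, normalisation, marker scores and the cluster used.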

Additional observations from a re-analysis of the deposited data

Results flagged for a closer look

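Each arm's score was examined in every cross and tissue with 4 to 10 arrays, 26 sets of values in all. An array lay far from the others in 2 of them, and chance alone gives about 1 in 20. The sterol arm score of CASTxPWK brain replicate 4 was -0.23, while the other 9 arrays lay between -0.053 and 0.136. The fatty acid arm score of PWK liver replicate 1 was -0.138, while the other arrays of that group lay between 0.166 and 0.414.

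The strain difference of a member depended on the tissue, by limma's F-test of strain by tissue, in 28 of 32 members for CAST and PWK, 29 of 32 for CAST and WSB, and 25 of 32 for PWK and WSB. The same test called 67.4%, 72.5% and 67.6% of all genes, so dependence on tissue was common to genes in general. Hmgcs1, for example, was higher in CAST than in PWK in kidney (0.80) and lower in liver (-0.48).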

How the results depend on the processing

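No named difference changed direction under the alternatives run, while the near-zero median correlation between the arms became -0.04 in kidney with cross differences left in and -0.01 in lung within runs. With the run of animal numbers fitted as a block, 59 of 61 named strain differences stayed called, 26 of 36 mid-parent departures, 4 of 21 reciprocal differences and 6 of 9 sex differences. With that block the called members numbered, against the mid-parent, 6 (CAST/PWK) and 1 (PWK/WSB) in brain, 4, 5 and 3 in kidney for the pairs CAST/PWK, CAST/WSB and PWK/WSB, 4 (CAST/PWK) and 1 (PWK/WSB) in liver, and 0, 1 and 2 in lung in the order given for kidney. Between reciprocal crosses they numbered 0 in brain (CAST/WSB), 0 for each pair in kidney, 1 (CAST/PWK) and 0 (CAST/WSB) in liver, 6 (CAST/WSB) and 0 (PWK/WSB) in lung; for sex in lung, 0. Median correlations within runs were 0.28 between the arms in liver, and 0.52 (kidney) and 0.45 (liver) within the fatty acid arm. With cross differences left in, that arm had 0.27 in kidney and 0.20 in lung, and 0.30 in lung after the fat score was taken out. Array weights gave 7 members for PWK/WSB mid-parent in brain, 14 for CAST/PWK mid-parent in liver, 6 for PWK/WSB reciprocal in kidney, 12 for CAST/WSB reciprocal in liver, 5 (CAST/PWK) and 22 (CAST/WSB) reciprocal in lung, and 15 and 11 for sex in kidney and liver. Without the second WSB run in liver there were 10 for PWK/WSB, 14 (CAST/WSB) and 0 (PWK/WSB) against the mid-parent, 12 for CAST/WSB reciprocal and 14 for sex. The oligodendrocyte covariate, added after the data were seen, gave 15 for CAST/WSB, 5 for the CAST/PWK mid-parent and 1 for PWK/WSB reciprocal in brain. The fat covariate gave 5 for CAST/PWK mid-parent in brain, and 2 (mid-parent) and 1 (reciprocal) for CAST/PWK in lung. The additive model gave 1 for CAST/WSB reciprocal in kidney and 2 for CAST/PWK reciprocal in liver. No filter gave 1 and 3 for the same 2 comparisons and 3 for sex in lung. A filter at the 60th percentile gave 1 for the CAST/PWK mid-parent in lung. The cause of these changes was not tested. The share of all genes called under the weights, covariates, additive model and filters is not given here. These changes can therefore not be set against those of genes in general. Taking the animals as independent, with no replicate block, gave interaction counts of 27, 28 and 24 of 32. Arrays were left out by run or quality and not singly, since crosses held over 5 arrays. The number of arrays limits small differences.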
